A study of Mus musculus with 2 samples.

Results

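The genes described here encode the extracellular and cell-surface proteinases that cut matrix and release membrane proteins, with their inhibitors. They are the matrix metalloproteinases (MMPs), the ADAM and ADAMTS families, the tissue inhibitors of metalloproteinases (TIMPs), the plasminogen activators Plau and Plat, and the receptor Plaur. They were chosen by symbol alone, from rows found in both deposited tables, which gave 71 genes of the 18944 listed. By family there were 21 MMPs, 22 ADAMs, 21 ADAMTS or ADAMTS-like genes, 4 TIMPs and the 3 plasminogen activator genes.

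RNA was sequenced from mouse intestinal stem cells in culture. In the gut these cells sit at the crypt base, carry the surface receptor Lgr5 and give rise to all epithelial lineages. There were 2 libraries, 1 labelled Lgr5GFP-CreERT2 WT and 1 labelled Lgr5GFP-CreERT2 Stat6 KO, and both groups are given an age of 2 months. Both therefore carry the Lgr5 reporter and Cre allele, and both were grown in the same medium, which contained EGF, the Wnt agonist Rspo1, N-acetylcysteine and the ROCK inhibitor Y27632. The labels describe infection with a lentivirus carrying CRISPR/Cas and Stat6 guides, followed by a screen for deficient cells, and they repeat that text for the WT sample. They do not say whether a control virus was used for WT, nor from how many mice or clones each library came. STAT6 is the transcription factor activated by the cytokines IL-4 and IL-13, and the comparison asks how expression differs without it.

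MMPs and ADAMs share a catalytic zinc ion and are made as inactive precursors. MMPs are mostly secreted and degrade collagens, laminins and proteoglycans, and the membrane-type MMPs do so at the cell surface. ADAMs are membrane proteins, and several of them shed growth factors, Notch receptors and cytokine receptors from the surface, whereas the secreted ADAMTS enzymes act on proteoglycans and procollagens. The plasminogen activators turn plasminogen into plasmin, a broad protease that also activates some MMPs. In the small intestine MMP7, or matrilysin, is stored in Paneth cell granules and activates the alpha-defensins.

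With 1 library per genotype no difference below has a replicate check, so genotypes are set side by side without a test, an SE or a p. The deposited unit is FPKM, read numbers scaled by transcript length and by the library's total, so levels can be compared between genes on that scale. Steps in the low values placed the depth near 20100000 reads in WT and 19900000 in KO, below the average of 59000000 reads per sample given in the labels. Read numbers below are estimates made with these depths. Stat6 itself was at 41.3 (WT) and 44.18 (KO) FPKM, which does not check the label, since a small CRISPR lesion need not lower a transcript. Lgr5 was at 1.79 and 1.88 FPKM. All 10 stem cell markers listed were at 1 FPKM or more, and their sum was 187.6 FPKM in WT and 104.8 FPKM in KO, with Cd44 and Sox9 at least 2-fold lower. Of the 10, 7 read lower in KO and 3 higher. Of all genes at 1 FPKM or more, 69.6% read lower in KO and 2.18% at least 2-fold lower. Cd44 alone was at 85.88 and 28.84 FPKM. Ascl2, at 9.28 and 5.29 FPKM, and Rnf43, at 25.1 and 18.12 FPKM, were also lower. Axin2, at 21.59 and 20.59 FPKM, was near level. Smoc2, at 9.88 and 11.39 FPKM, and Tnfrsf19, at 1.14 and 1.44 FPKM, were higher in KO. The sum of 10 markers of absorptive enterocytes was 4247 and 15280 FPKM, so that transcripts of differentiated cells were abundant in both cultures and more so in KO.

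Of the 71 genes, 23 reached 1 FPKM in at least 1 library and are called measured here, 41 were above 0 but under 1 FPKM in both, and 7 were listed at 0 in both. The difference is given as the log2 ratio, log2((KO FPKM + 1)/(WT FPKM + 1)), whose added 1 understates the change of low genes. Lower in KO by at least 2-fold were 3 of the 23 measured genes: Mmp13, Mmp12 and Adamts1. None was at least 2-fold higher. Over all 12079 measured genes, 2.18% were at least 2-fold lower and 2.44% at least 2-fold higher. Below 0 were 21 of 23 members, where 69.6% of all measured genes lay below 0, and the exceptions were Mmp7 and Adam10. With a trimmed mean of log ratios (TMM) scaling, which raises every log2 ratio by 0.23, 15 of 23 lay below 0, against 43.3% of all genes. The median log2 ratio of the members was -0.40, that of all genes -0.18. With no minimum level the order turned, at -0.06 for all 71 members and -0.08 for all 18944 genes. Below the median of all measured genes, -0.18, were 16 of 23 members, where 50.0% of all measured genes lie by construction.

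The number of members past 2-fold depended on the setting more than their direction did. With 0.1 added in place of 1, 6 members were at least 2-fold lower (604 of 12079 genes) and none at least 2-fold higher (3.10% of all genes). Only Mmp13 remained with TMM scaling, where 1.13% of all genes were at least 2-fold lower, and with the median of all genes set to 0, where 1.32% were. With 5 added none was (0.522% of all genes), and none was at least 4-fold lower (0.224%). At a 1.5-fold threshold 8 members were lower (11.4% of all genes) and none higher (5.70%).

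The total over the members was 480.2 FPKM in the WT library against 407.5 in the KO library. Most of that sum came from few genes: Mmp7, Plaur, Plat, Adam10 and Mmp15 made up 66.6% of it in WT and 73.4% in KO. Of the 14 measured members with a mean under 10 FPKM, 3 were at least 2-fold lower, where 3.23% of all genes in that band were. Above that mean it was 0 of 9 members and 1.26% of all genes, which at this number of members shows no difference between the bands.

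**Figure D1:**
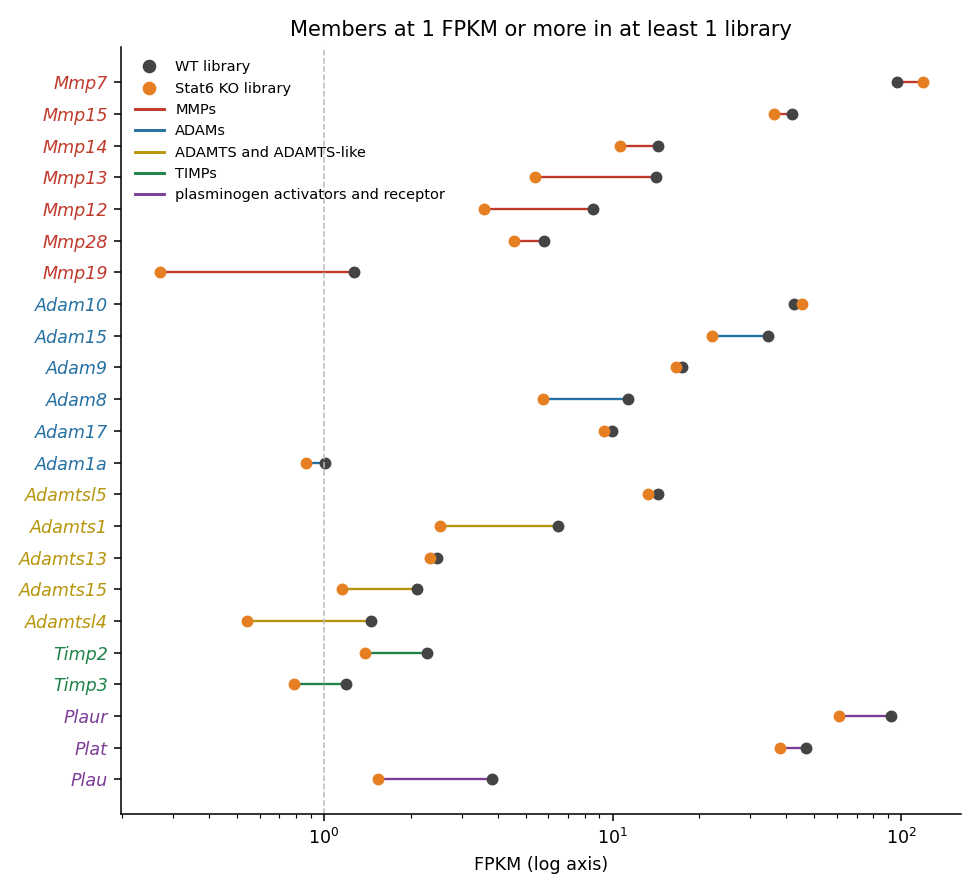
FPKM on a log axis of the 23 members that reached 1 FPKM in at least 1 library, with 1 grey point for the WT library, 1 orange point for the Stat6 KO library and a line coloured by family. Mmp7 and Adam10 have the KO point on the right; the widest gaps belong to Mmp19, Adamtsl4, Mmp13, Adamts1, Plau and Mmp12.

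The MMPs held the highest and the lowest log2 ratio of the group. Mmp7 (Entrez gene 17393), the Paneth cell matrilysin, was the most abundant member in both libraries, at 96.57 (WT) and 118.8 (KO) FPKM. Its KO level was 1.23 times its WT level, with a 95% counting interval of 1.16 to 1.31 from about 1997 and 2440 reads. Here and below, such intervals are exact binomial limits on the estimated reads of the KO to WT ratio, and they cover counting error only. The log2 ratio of Mmp7 was 0.30, or 0.53 with TMM scaling. The other 9 Paneth cell markers of the list summed to 2114 FPKM in WT and 2192 FPKM in KO, with none at 0 in either library. Lyz1, the Paneth cell lysozyme, was at 358.2 and 473.3 FPKM, and the alpha-defensin Defa24 at 824.4 and 846.2 FPKM. Of these 9, 6 were higher and 3 lower in KO, and 2 of the 3 were at least 2-fold lower (2.18% of all measured genes). The latter were Pla2g2a, a secreted antibacterial phospholipase, at 235 and 110.6 FPKM, and Mptx2, at 29.67 and 12.06 FPKM. Whether the level of Mmp7 follows the number of Paneth cells was not tested. In bulk RNA, fewer cells of a type and less RNA per cell cannot be told apart, and this holds for every gene below.

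Mmp13 (Entrez gene 17386), a collagenase of fibrillar collagens, had the lowest log2 ratio of the members, -1.25. It was at 14.17 (WT) and 5.37 (KO) FPKM, or about 750.2 and 281.8 reads. The WT level was 2.64 times the KO level, and only 1.06% of all measured genes had a lower log2 ratio. The KO to WT ratio was 0.379, with a counting interval of 0.330 to 0.436. Mmp13 was the only member to stay past 2-fold with TMM scaling, at -1.02.

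Mmp12 (Entrez gene 17381), the macrophage metalloelastase, was at 8.57 and 3.59 FPKM, a log2 ratio of -1.06 and a KO to WT ratio of 0.419 (counting interval 0.360 to 0.485). With TMM scaling its log2 ratio was -0.83. Markers of macrophages and other leukocytes were present in both libraries. Of the 14 listed, 13 were measured and none was at 0, and the sum was 62.1 FPKM in WT and 30.4 FPKM in KO. Below 0 were 12 of the 13, where 69.6% of all measured genes lay. Cd68, a macrophage lysosomal protein, was at 17.74 and 6.08 FPKM, and Coro1a, a leukocyte actin regulator, at 3.67 and 1.12 FPKM. These were the 2 of 13 at least 2-fold lower, where 2.18% of all measured genes were. Itgam, an integrin chain of myeloid cells, was higher in KO, at 1.26 and 1.72 FPKM. Aif1 was at 0.06 and 0.12 FPKM, about 1 and 2 reads, too few to carry a comparison. The defining markers were low, with Ptprc at 1.43 and 0.57 FPKM, Csf1r at 2.07 and 0.96 FPKM and Adgre1 at 1.16 and 0.86 FPKM. The part of leukocytes in the level of Mmp12, or of any other member, was not tested.

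The remaining measured MMPs were nearer to each other in the 2 libraries, apart from Mmp19. Mmp15 and Mmp14 are membrane-type enzymes, and MMP14 activates proMMP2 at the cell surface. Mmp15 was the second most abundant MMP, at 41.92 and 36.3 FPKM (log2 ratio -0.20, and 0.03 with TMM scaling). Mmp14 was at 14.31 and 10.6 FPKM (-0.40). Mmp28, or epilysin, an enzyme of epithelia, was at 5.79 and 4.55 FPKM (-0.29). Mmp19 was at 1.27 (WT) and 0.27 (KO) FPKM, about 85.8 and 18.1 reads. The WT level of Mmp19 was 4.70 times the KO level, the widest gap on the plain scale among measured members. Its KO to WT ratio was 0.213 (counting interval 0.120 to 0.354), while its log2 ratio was -0.84 because of the added 1. With an added 0.1 in place of 1 it was -1.89.

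Without Mmp7 the MMPs summed to 89 FPKM in WT and 63.4 FPKM in KO. With it they summed to 185.6 and 182.2 FPKM, so the totals hid a change of make-up. Mmp7 stood at 6.82 times the level of Mmp13 in WT and at 22.1 times in KO. Those 2 genes lie at opposite ends of a cluster of MMP genes on chromosome 9. In the RefSeq order on GRCm38.p6 the listed members of that cluster run Mmp13, Mmp12, Mmp3, Mmp10, Mmp8, Mmp27, Mmp20 and Mmp7. The 5 genes between Mmp12 and Mmp7 were all under 0.6 FPKM. Mmp3 (stromelysin 1) was at 0.53 and 0.57 FPKM and Mmp10 (stromelysin 2) at 0.28 and 0.17 FPKM. Mmp8, the neutrophil collagenase, was at 0.17 and 0.14 FPKM. Mmp27 was at 0.05 and 0.02 FPKM and the enamel protease Mmp20 at 0.29 and 0.14 FPKM. Expression was thus higher at both ends of the cluster than between them in both libraries, and far higher at the Mmp7 end than at the other.

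**Figure D2:**
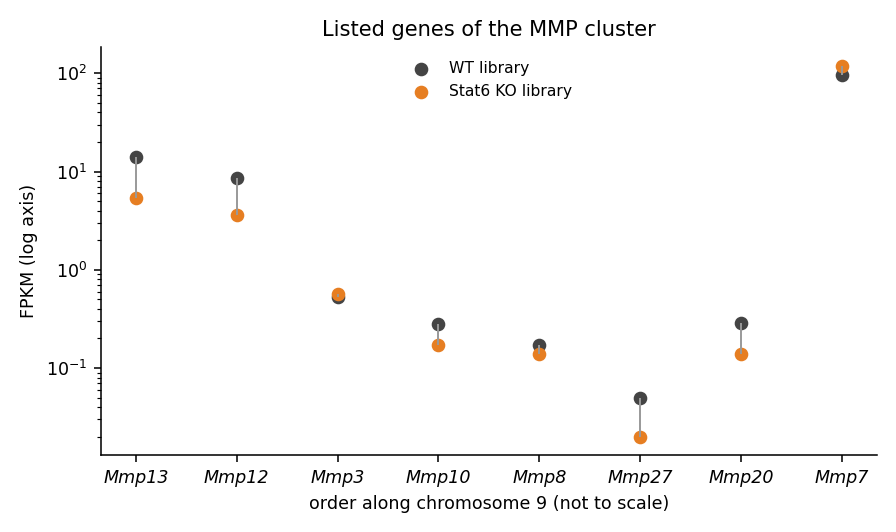
FPKM on a log axis of the 8 listed genes of the chromosome 9 MMP cluster, in genomic order but not to scale, with grey points for WT and orange points for Stat6 KO. Mmp13 and Mmp12 at the left read lower in KO, Mmp7 at the right higher, and the 5 genes between Mmp12 and Mmp7 stay under 0.6 FPKM.

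Promoters of these genes are shown because AP-1, a dimer of Fos and Jun proteins, is a textbook regulator of MMP and urokinase receptor genes. The RefSeq promoter table (GRCm38.p6) held 44 of the 71 members and 18 of the 23 measured ones. The AP-1 letters TGANTCA, which read the same on both strands, were sought in the 250 bases before each start. They occurred in 4 of the 18 measured members, namely Mmp13, Mmp12, Mmp7 and Plaur. Over all 44 members searched, 8 held them (18.2%). The others were Mmp3, Mmp10, Mmp20 and Adam19, all under 1 FPKM in both libraries. Among the 14547 listed genes with a promoter entry, 6.52% held them, and among the 9543 measured ones 5.65%. The last 120 bases before the start are printed in the direction of transcription, with the AP-1 letters in capitals. A gene with several starts counted if the window of any start held the letters. For Mmp7 the upstream and for Mmp12 the downstream of 2 annotated starts is shown. The window of the other start of each held no AP-1 letters.
Mmp13, chr9:7272394-7272513, plus strand: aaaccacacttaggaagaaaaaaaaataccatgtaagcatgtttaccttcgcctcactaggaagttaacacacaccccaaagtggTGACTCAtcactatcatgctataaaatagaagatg
Mmp12, chr9:7347254-7347373, plus strand: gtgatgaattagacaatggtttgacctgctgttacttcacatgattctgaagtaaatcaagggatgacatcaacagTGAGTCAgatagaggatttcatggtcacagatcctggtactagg
Mmp7, chr9:7691970-7692089, plus strand: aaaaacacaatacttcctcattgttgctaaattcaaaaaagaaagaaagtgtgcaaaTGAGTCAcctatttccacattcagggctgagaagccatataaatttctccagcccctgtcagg
Plaur, chr7:24462363-24462482, plus strand: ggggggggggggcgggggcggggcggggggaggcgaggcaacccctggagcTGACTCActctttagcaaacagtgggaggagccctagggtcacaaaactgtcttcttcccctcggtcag
Adamts1, chr16:85803114-85803233, minus strand: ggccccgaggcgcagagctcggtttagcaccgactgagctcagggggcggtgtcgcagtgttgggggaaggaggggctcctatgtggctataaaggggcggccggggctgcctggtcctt

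The AP-1 letters began 35 bases before the start of Mmp13, 44 before that of Mmp12, 63 before that of Mmp7 and 69 before that of Plaur. The promoters with a match thus included the member with the lowest log2 ratio, Mmp13, and the member with the highest, Mmp7. Adamts1, also at least 2-fold lower, had no match in its window. A STAT6 motif, the letters TTC and GAA with 4 bases between them, which also reads the same on both strands, was in none of the 18 measured members searched, and in 5.37% of all measured genes searched. It was in 1 of the 44 members searched, the low gene Adam19. The TCF letters CTTTGA, sought on both strands, were in 2 of the 18, Mmp7 and Adamts13, and in 12.8% of all measured genes, which is no higher among members. In Mmp7 the TCF letters lay before the downstream start, whose sequence is not printed, and not in the window that held the AP-1 letters. A match is a stretch of letters and not a bound site, and no match says only that these letters are not in this window.

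Genes of AP-1 factors, and of the ETS and RUNX factors also known to act on MMP genes, were taken from a list. Of 14 measured AP-1, ETS and RUNX genes, 2 were at least 2-fold lower (2.18% of all measured genes) and none higher (2.44%). They were the AP-1 member Fosl1, at 16.82 and 4.07 FPKM (log2 ratio -1.81), and the ETS factor Etv4, at 13.56 and 6.1 FPKM (-1.04, and within 2-fold with TMM scaling). Fos was at 32.73 and 17.47 FPKM and Jund at 162.2 and 94.3 FPKM. Fosb was at 1.02 and 0.11 FPKM, about 76.7 and 8.2 reads. Its WT level was 9.27 times its KO level, while its log2 ratio was -0.86 because of the added 1. Jun, at 31.14 and 33.39 FPKM, and Junb, at 92.26 and 100.9 FPKM, were higher in KO. The list's median was -0.18, the same as that of all genes, and 0.05 with TMM scaling.

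Among the plasminogen activators, the urokinase gene Plau differed most. Plau (Entrez gene 18792), whose product is the cell-surface plasminogen activator of migrating cells, was at 3.81 (WT) and 1.54 (KO) FPKM, about 176.4 and 70.7 reads. The WT level was 2.47 times the KO level and the KO to WT ratio 0.404 (counting interval 0.305 to 0.540). Its log2 ratio of -0.92 fell short of 2-fold, but with an added 0.1 it was -1.25. Plaur, the GPI-anchored urokinase receptor (Entrez gene 18793), was the second most abundant member, at 91.77 and 60.92 FPKM (log2 ratio -0.58). The receptor transcript therefore stood at 24.1 times that of its ligand in WT and at 39.6 times in KO. Plat, the tissue-type activator best known for dissolving fibrin clots, was at 46.84 and 37.88 FPKM (log2 ratio -0.30). It was far above Plau in both libraries, at 12.3 times its level in WT and 24.6 times in KO. All 3 stayed below 0 with TMM scaling.

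Partners of the plasminogen system were taken from a list of 17 genes, of which 15 were in the tables and 12 measured. Only Serpinb2, the plasminogen activator inhibitor 2 gene, was at least 2-fold lower, at 2.21 and 0.45 FPKM (log2 ratio -1.15, and within 2-fold with TMM scaling). That is 1 of 12, where 2.18% of all measured genes were. None was at least 2-fold higher (2.44% of all measured genes). The genes of the annexin 2 complex, a surface docking site for plasminogen and tissue-type activator, were abundant and read lower in KO. Anxa2 was at 2034 and 1266 FPKM (-0.68) and S100a10 at 872.4 and 503.4 FPKM (-0.79). Plasminogen itself, the substrate made by the liver, was nearly absent, with Plg at 0.04 and 0.05 FPKM. Matriptase (St14), an epithelial surface protease, was at 95.37 and 83.09 FPKM, and its inhibitors Spint1 and Spint2 were at 128.5 and 143.7 FPKM and at 510.2 and 491.3 FPKM. The list's median log2 ratio was -0.13, and 0.10 with TMM scaling.

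**Figure D3:**
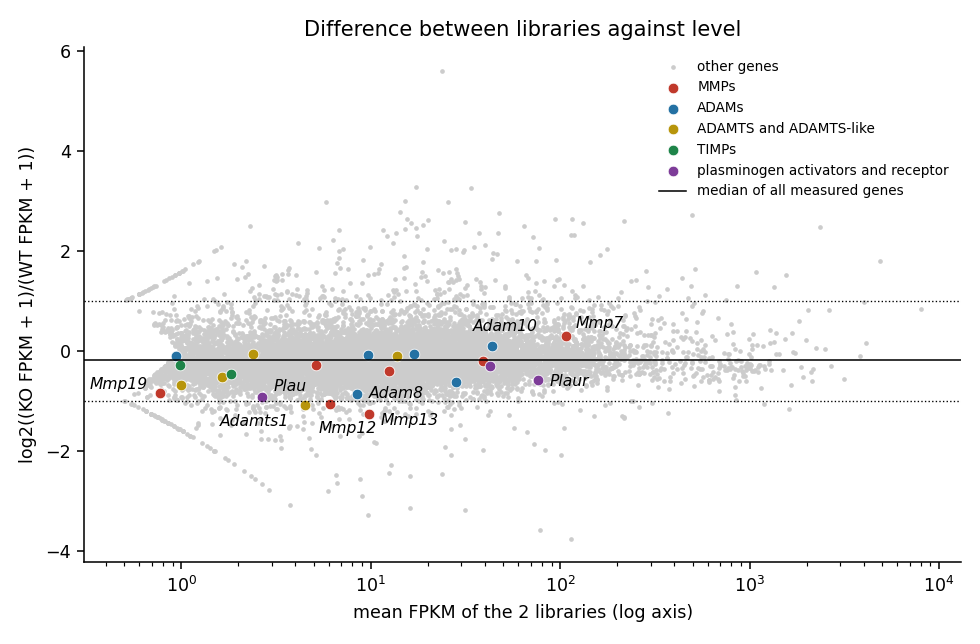
Log2 ratio of KO to WT, with 1 added to each FPKM, against the mean FPKM of the 2 libraries on a log axis, for all 12079 measured genes in grey and the 23 measured members coloured by family. The solid line is the median of all genes, -0.18, and dotted lines mark 2-fold; Mmp13, Mmp12 and Adamts1 lie below the lower line and no member lies above the upper.

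The catalytic ADAMs split into a pair that read lower in KO and a group near level. Adam8, a sheddase of leukocytes and of activated epithelium, was at 11.27 (WT) and 5.75 (KO) FPKM, about 697.3 and 352.5 reads. Its log2 ratio was -0.86 and its KO to WT ratio 0.510 (counting interval 0.449 to 0.582). Adam15, which is found at cell junctions, was at 34.64 and 22.06 FPKM (log2 ratio -0.63, KO to WT ratio 0.637, counting interval 0.594 to 0.684). With TMM scaling both stayed below 0, at -0.63 for Adam8 and -0.40 for Adam15.

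The main sheddases differed little. Adam10, which cleaves Notch receptors and E-cadherin, was the most abundant ADAM, at 42.51 and 45.26 FPKM (log2 ratio 0.09). Adam17, which releases TNF and EGF receptor ligands, was at 9.93 and 9.35 FPKM (-0.08). Adam9, a sheddase with a wide range of substrates, was at 17.38 and 16.65 FPKM (-0.06). The KO to WT ratio was 1.06 for Adam10 (counting interval 1.02 to 1.11), 0.942 for Adam17 (0.856 to 1.04) and 0.958 for Adam9 (0.889 to 1.03). With TMM scaling Adam17 and Adam9 read higher in KO, at 0.15 and 0.17. Adam10 was at 1.23 times the level of Adam15 in WT and at 2.05 times in KO. The median of the 6 measured ADAMs was -0.09, but 0.14 with TMM scaling and 0.09 with the median of all genes set to 0.

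Partners and substrates of ADAM10 and ADAM17 were described from lists, which were chosen with earlier results of these data known. Of 11 measured genes on the partner list none passed 2-fold in either direction, and their median was -0.11 (0.12 with TMM scaling). Rhbdf2 and Rhbdf1 encode the iRhom proteins that carry ADAM17 to the surface. Rhbdf2 was at 16.4 and 9.96 FPKM (-0.67) and Rhbdf1 at 16.49 and 13.04 FPKM (-0.32). Tspan5 and Tspan15, tetraspanins that bind ADAM10, were at 12.38 and 17.06 FPKM (0.43) and at 29.31 and 32.9 FPKM (0.16). Lowest on the list was the scaffold gene Sh3pxd2b, which organises invadopodia, at 3.57 and 1.7 FPKM (-0.76). It and the related Sh3pxd2a are counted in the list and its median, but binding to ADAM10 or ADAM17 is not claimed for them.

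Of 28 measured genes for proteins that are shed, 4 were at least 2-fold lower (2.18% of all measured genes) and none higher (2.44%). These were the EGF receptor ligand Hbegf (40.14 and 12.93 FPKM, log2 ratio -1.56), the hyaluronan receptor Cd44 (85.88 and 28.84 FPKM, -1.54), the TNF receptor Tnfrsf1b (10 and 3.99 FPKM, -1.14) and Tnf (8.81 and 3.81 FPKM, -1.03). With TMM scaling 2 of the 28 stayed past 2-fold, where 1.13% of all measured genes were at least 2-fold lower. Cd44 is also in the stem cell marker list. The fractalkine gene Cx3cl1 was highest, at 14.11 and 20.63 FPKM (0.52), followed by the Notch ligand Dll1 at 6.09 and 8.18 FPKM (0.37). Notch1, a substrate of ADAM10, was at 4.07 and 2.22 FPKM (-0.65). The median was -0.27, and -0.04 with TMM scaling.

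ADAMTS genes were mostly low, and Adamts1 was the only one of 5 measured to pass 2-fold. Adamts1 (Entrez gene 11504), which cleaves versican and aggrecan, was at 6.46 (WT) and 2.53 (KO) FPKM, about 629.1 and 244.1 reads. Its log2 ratio was -1.08 and its KO to WT ratio 0.392 (counting interval 0.337 to 0.455). With TMM scaling the log2 ratio was -0.85. Adamts15, of the same functional class, was at 2.11 and 1.16 FPKM (log2 ratio -0.53, KO to WT ratio 0.550, counting interval 0.443 to 0.680).

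The aggrecanases Adamts4 and Adamts5 were under the minimum level but rested on enough reads to compare. Adamts4 was at 0.69 and 0.19 FPKM, about 60.3 and 16.4 reads, and its counting interval of the KO to WT ratio was 0.145 to 0.474. Adamts5 was at 0.39 and 0.16 FPKM, about 84.3 and 34.2 reads, with an interval of 0.266 to 0.616. Adamts9 was at 0.23 and 0.16 FPKM, with an interval of 0.362 to 1.27 that spans equality. Adamts20 was at 0.03 and 0.01 FPKM, about 4.1 and 1.4 reads, and Adamts8 was listed at 0 in both.

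Other ADAMTS genes showed no common direction. Adamts13, the protease of von Willebrand factor, was at 2.47 and 2.33 FPKM (log2 ratio -0.06, and 0.17 with TMM scaling). Adamtsl5, an ADAMTS-like protein without a protease domain, was the most abundant of the family, at 14.31 and 13.27 FPKM (-0.10, and 0.13 with TMM scaling). Adamtsl4, which binds fibrillin microfibrils, was at 1.46 and 0.54 FPKM, about 117.3 and 43 reads. Its WT level was 2.70 times its KO level (log2 ratio -0.68, and -1.29 with an added 0.1). Adamts17 read the other way, at 0.08 and 0.23 FPKM, about 9.6 and 27.4 reads, with a counting interval of the KO to WT ratio of 1.28 to 6.31. The procollagen-processing Adamts2 was at 0.20 and 0.23 FPKM, Adamts14 at 0.07 and 0.03 FPKM and Adamts3 at 0 and 0.02 FPKM.

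The TIMPs, which block the active site of MMPs and some ADAMs, were scarce in both libraries. Timp2 was the most abundant, at 2.28 and 1.39 FPKM (log2 ratio -0.46). Timp3, the matrix-bound inhibitor of ADAM17, was at 1.19 and 0.79 FPKM (-0.29). Timp1 was at 0.74 and 0.34 FPKM, about 12.6 and 5.7 reads, and Timp4 at 0.07 and 0.04 FPKM. None passed 2-fold on the log2 ratio, though without the added 1 the WT level of Timp1 was 2.18 times its KO level. The counting intervals of the KO to WT ratio spanned equality for Timp1 (0.145 to 1.31) and Timp4 (0.111 to 1.89). They lay below equality for Timp2 (0.475 to 0.789) and Timp3 (0.491 to 0.903). The 4 TIMPs summed to 4.28 and 2.56 FPKM. The MMPs summed to 43.4 times that value in WT and 71.2 times in KO, and without Mmp7 to 20.8 and 24.8 times.

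Stromal cells, a usual source of TIMPs and of Mmp2, were thinly represented. Of 12 fibroblast and myofibroblast markers 3 were measured and none was at 0, and the sum was 8.4 FPKM in WT and 5.62 FPKM in KO. Dcn, the matrix proteoglycan decorin, was at 2.75 and 0.88 FPKM and made up most of that difference, while Tagln, a smooth muscle protein, was at 1.94 and 2.04 FPKM and Thy1 at 1.02 and 0.63 FPKM. Col1a1 was at 0.71 and 0.51 FPKM and Pdgfra at 0.05 and 0.05 FPKM. Of 10 endothelial markers 8 were measured, none was at 0, and the sum was 29.3 and 15 FPKM. All 8 read lower in KO, where 69.6% of all measured genes did. Cldn5, at 3.16 and 0.5 FPKM (log2 ratio -1.47), was the only 1 of them at least 2-fold lower (2.18% of all measured genes). The part of stromal and endothelial cells in the levels of the TIMPs was not tested. Mmp2 (gelatinase A) was at 0.17 and 0.15 FPKM and Mmp9 (gelatinase B) at 0.18 and 0.16 FPKM, about 11.3 and 10 reads. Of the neutrophil markers 7 were in the tables and 2 measured, with a sum of 4.8 and 4.84 FPKM.

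Of the 41 members above 0 but under 1 FPKM in both libraries, 30 read lower in KO, 9 higher and 2 equal. That is 73.2% lower, where 61.0% of the 6164 genes in this range were. For 20 of the 41, neither library had 10 estimated reads, so single values there cannot carry a comparison. Rounding of FPKM to 2 decimals adds to the error of these values. The sum of the 41 was 8.16 FPKM in WT and 5.76 FPKM in KO.

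Some of the low genes rested on more reads. Adam28, an ADAM of lymphocytes and epithelium, was at 0.48 and 0.12 FPKM, about 29.6 and 7.3 reads, with a counting interval of the KO to WT ratio of 0.0874 to 0.548. Adam19 was at 0.38 and 0.20 FPKM, about 48.5 and 25.3 reads (interval 0.311 to 0.870). The membrane-type MMP gene Mmp17 was at 0.26 and 0.31 FPKM and Mmp24 at 0.38 and 0.21 FPKM, both with intervals that span equality. Mmp23 was at 0.29 and 0.58 FPKM, about 8.1 and 16.1 reads, and its interval of 0.816 to 5.45 also spans it.

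ADAMs known from testis and epididymis were absent or nearly so. Adam2, Adam3, Adam30 and Adam6b were listed at 0 in both libraries. Adam1a, at 1.01 and 0.87 FPKM, was the exception that reached the minimum level. Adam1b, its close relative and chromosomal neighbour, had no signal listed for WT and 0.10 FPKM for KO, and reads of the pair could be divided between them by estimation. Adam4 was at 0.37 and 0.50 FPKM. The ADAMs without catalytic activity, which are mostly neural, were also low. Adam22 was at 0.25 and 0.17 FPKM, Adam23 at 0.11 and 0.07 FPKM and Adam11 at 0.09 and 0.01 FPKM.

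**Figure D4:**
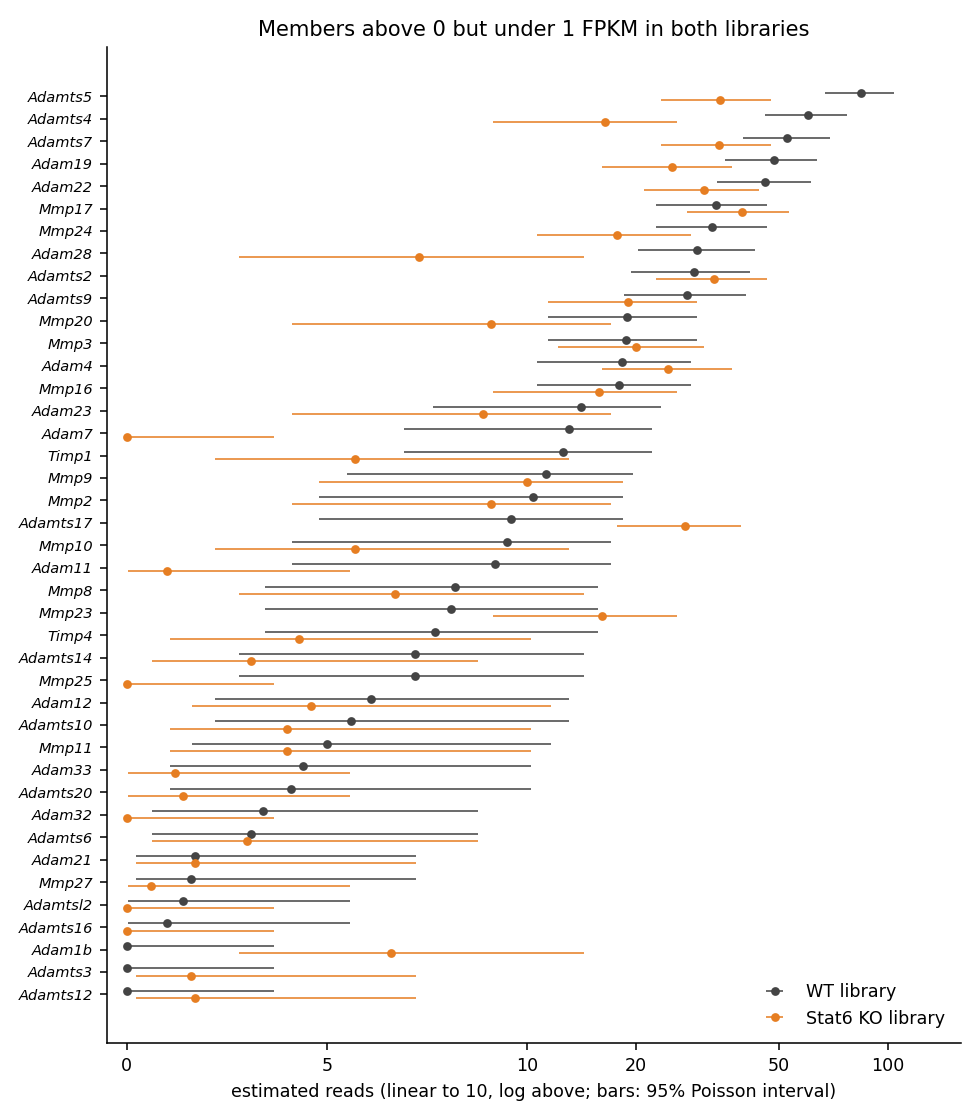
Estimated reads of the 41 members above 0 but under 1 FPKM in both libraries, WT in grey and Stat6 KO in orange, on an axis that is linear to 10 and logarithmic above, with bars for the 95% Poisson interval of the rounded read number. Intervals of the 2 libraries overlap for most genes; those of Adamts4, Adamts5, Adam28 and Adam7 do not, and there the WT point is on the right.

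Substrates in the matrix were described from a list of laminins, collagens and other matrix genes. Of 14 measured laminin, collagen and other matrix genes 1 was at least 2-fold lower (2.18% of all measured genes) and none higher (2.44%). Below 0 were 13 of 14, where 69.6% of all measured genes lay, and the median was -0.53 (-0.29 with TMM scaling). The exception was Nid2, a nidogen of basement membranes, at 2.83 and 3.59 FPKM. The gene past 2-fold was the laminin chain Lama3, at 6.42 and 2.33 FPKM (-1.16, and within 2-fold with TMM scaling). Lamb3, another laminin chain, was at 55.87 and 50.36 FPKM (-0.15). The basement membrane collagen gene Col4a1 was at 4.4 and 2.19 FPKM (-0.76). Fibrillar collagens, the substrate of collagenases, were low, as the values of Col1a1 above and of Col3a1, at 0.32 FPKM in both, show.

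Activators and regulators of MMPs were mixed. Of 5 measured genes none passed 2-fold. The proprotein convertase Furin, which activates membrane-type MMPs and ADAMs, was at 36.19 and 29.24 FPKM (-0.30), and Pcsk5 at 8.04 and 16.33 FPKM (0.94, and past 2-fold with TMM scaling). Bsg, or EMMPRIN, an inducer of MMPs, was at 667 and 844.3 FPKM (0.34). The membrane inhibitor gene Reck was at 0.17 and 0.16 FPKM.

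Metalloproteases of other families stood in contrast. Among 10 measured genes, 5 exceeded their WT level at least 2-fold (2.44% of all measured genes) and none was lower to that extent (2.18%). Their median log2 ratio was 1.06. The 5 past 2-fold included the brush-border peptidases Mme, Enpep and Anpep. Enpep, aminopeptidase A, was at 31.19 and 198.8 FPKM (2.63). Anpep, aminopeptidase N, was at 497.9 and 1223 FPKM (1.29). The meprin subunit gene Mep1b was at 190.4 and 337.9 FPKM (0.82), whereas Bmp1, a procollagen C-proteinase, was at 1.14 and 0.69 FPKM (-0.34). Of the 10 enterocyte markers, 8 also passed 2-fold in that direction, none was at 0 in either, and the part of enterocyte number in these values was not tested.

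**Figure D5:**
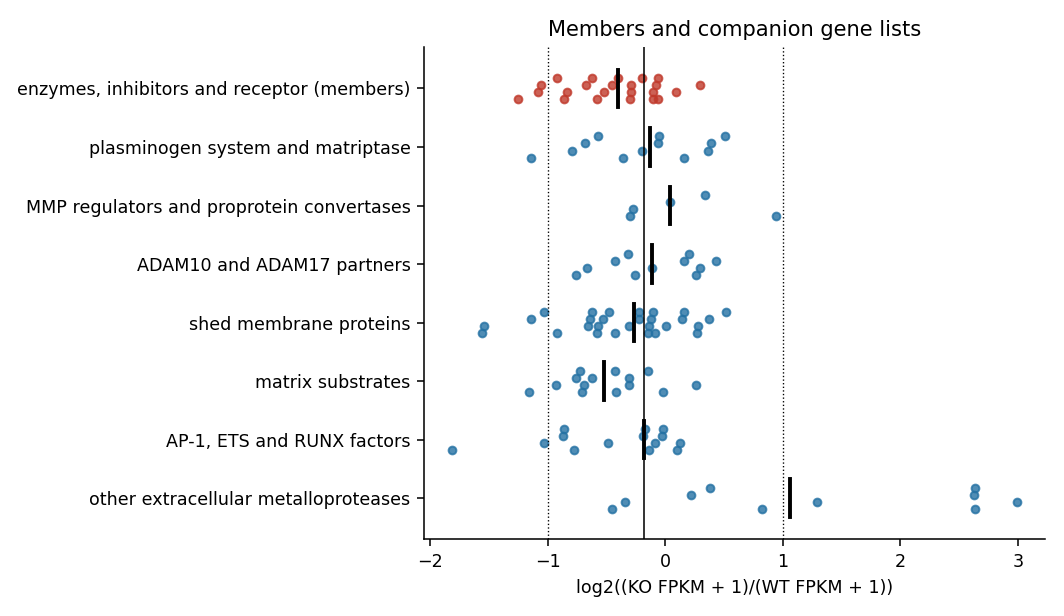
Log2 ratios of KO to WT, with 1 added to each FPKM, of the 23 measured members in red and of the measured genes of 7 companion lists in blue, with a thick bar at each median. The thin line is the median of all genes, -0.18, and dotted lines mark 2-fold; the list of other extracellular metalloproteases has its median at 1.06, the members at -0.40.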

How the data were processed

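Per the file headers, the deposited values were FPKM per gene, rounded to 2 decimals, for 1 WT and 1 Stat6 KO library. The tools named there, per the submitters' processing notes, are RSEM, HISAT and Bowtie2, with the build mm9. Their roles and versions were not given in the sources used here. Because FPKM is relative to the library total, abundant genes that differ move all other values, and near-identical genes share reads by estimation.

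Tables were joined on Entrez number with Python 3.11.15, pandas 2.3.3, numpy 2.4.6 and scipy 1.17.1. Genes that reached 1 FPKM in either library were compared by log2((KO FPKM + 1)/(WT FPKM + 1)) and called at 2-fold, with no test. Depth was the value, searched from 5000000 to 60000000 reads, that brought low FPKM of 2399 single-transcript genes nearest to whole reads. In WT 72.7% and in KO 77% of such values lay within 0.15 read of a whole number, a share that the search itself raised. The reads of a gene used its longest RefSeq-matched GENCODE M21 transcript, and 50 of the 71 genes have a single such transcript. The calculations were tested on simulated data. Alternatives were 2 pseudocounts, 2 scalings, 3 minimum levels and 2 fold thresholds. Every member could be named, and of other lists the 4 highest and 4 lowest log2 ratios and all past 2-fold, besides genes that define a cell type or complex, which were picked after values were seen. Members and lists were chosen with earlier results of these data known. Promoter sequences are from RefSeq (GRCm38.p6), matched by Entrez number; no other coordinates are given, because that build differs from mm9. Some genes of the companion lists are counted but not reported here by name.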

Additional observations from a re-analysis of the deposited data

How the results depend on the processing

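The number of members at least 2-fold lower in KO, 3 of 23, moved with most settings. It was 6 with a pseudocount of 0.1 (Adamtsl4, Mmp19 and Plau added to the 3, where 604 of 12079 genes passed) and 0 with a pseudocount of 5 (0.522% of all genes). It was 1, Mmp13, both with TMM scaling (1.13%) and with the median of all genes set to 0 (1.32%). A 1.5-fold threshold gave 8 (11.4%) and a 4-fold threshold 0 (0.224%). The 3 other minimum levels left it at 3. No member was at least 2-fold higher in any setting. The median log2 ratio of the members stayed below 0 in every setting, from -0.54 with a pseudocount of 0.1 to -0.06 with no minimum level, where that of all genes was lower, at -0.08, and so did the family medians, except that of the ADAMs, which was 0.14 with TMM scaling and 0.09 with the median of all genes set to 0. A minimum of 5 FPKM left no TIMP to take a median of. The causes were not tested. No paired analysis was possible because each genotype had 1 library, and for the same reason no library could be left out. Depth limits the low genes: for 20 of the 41 members under the minimum level neither library had 10 estimated reads.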

Other observations

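Several members lie next to each other on a chromosome, by the gene order of RefSeq (GRCm38.p6). On chromosome 14, Adam7, Adamdec1 and Adam28 are consecutive protein-coding genes, and all 3 read lower in KO. Of all genes above 0 but under 1 FPKM in both libraries, 61.0% did. Adam7, an epididymal ADAM, was at 0.19 FPKM in WT, about 13.1 reads, and was listed at 0 in KO. Adamdec1, an ADAM-like gene of gut macrophages, was at 0.17 and 0.02 FPKM, about 8.2 and 1 reads, too few to carry a comparison. Adam28 was at 0.48 and 0.12 FPKM. On chromosome 16, Adamts1 and Adamts5 adjoin each other. The KO to WT ratio was 0.392 for Adamts1 and 0.410 for Adamts5. These sets of neighbours were picked after their values were seen. Each rests on 1 library per genotype.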
